A study of Homo sapiens with 12 samples.

Results

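Interferon-stimulated genes and genes of the double-stranded RNA response were followed as 1 set of 39 named genes, taken by gene symbol from a table of 78885 entries, of which 25787 carry a symbol. All 39 genes had an entry, and 30 of them passed a mean of at least 10 normalised read counts over the 12 libraries. The set holds 27 antiviral effectors (21 passed), 4 sensors, adaptors and editors of double-stranded RNA (3 passed), 6 transcription factors and feedback regulators (6 passed) and 2 chemokines, neither of which passed.

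The libraries were made from total RNA of human TC-71 cells, an established line of Ewing sarcoma, and form 4 groups of 3 biological replicates. YK-4-279 libraries came from wild-type TC-71 cells given the small molecule YK-4-279, which was developed against the contact of the EWS-FLI1 fusion protein with the RNA helicase DHX9. The labelled dose was 2 mM and the labelled exposure 16 hours. DMSO libraries came from wild-type cells given the solvent over the same 16 hours. siDHX9 libraries came from cells transfected with Lipofectamine RNAiMAX to knock down DHX9, and scrambled libraries from cells transfected with a scrambled control, both collected at 48 hours after a double reverse transfection. The labels call the transfected RNA siRNA in one place and shRNA in another. Every group is the same line, so the error below is variation among cultures. Scrambled and DMSO libraries differ in transfection, in hours and in solvent together, and these cannot be told apart.

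Cells sense double-stranded RNA through RIG-I, MDA5 (the product of IFIH1) and TLR3. The signals of these sensors pass through MAVS or TRIF to IRF3 and NF-kappaB and switch on interferon genes. Secreted interferon then acts through its receptor, JAK kinases and transcription factors that include STAT2 and IRF9, which bind the interferon-stimulated response element (ISRE) of a wide range of target genes. DHX9 unwinds double-stranded RNA, and transfected RNA can itself be a ligand of these sensors.

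The ISRE is shown first in 5 promoters, chosen because the values below turn on these genes and each holds a match. IFIT1 differed between both transfected groups and DMSO, IFIT3 between scrambled and DMSO, ISG15 between siDHX9 and scrambled, and IFITM3 between YK-4-279 and DMSO. CXCL10 had reads in transfected libraries. The 250 bases before the annotated start are printed 5′ to 3′ on the strand of the gene, from RefSeq on GRCh38.p14, with each ISRE core match in capitals. The searched core was GAAANNGAAA, whose half-sites read TTTC where the match lies on the opposite strand.
IFIT1: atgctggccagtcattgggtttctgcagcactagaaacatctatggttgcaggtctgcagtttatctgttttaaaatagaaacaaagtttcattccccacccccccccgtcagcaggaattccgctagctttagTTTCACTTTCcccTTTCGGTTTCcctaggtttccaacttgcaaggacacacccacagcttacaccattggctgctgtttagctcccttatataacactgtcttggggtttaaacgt
IFIT3: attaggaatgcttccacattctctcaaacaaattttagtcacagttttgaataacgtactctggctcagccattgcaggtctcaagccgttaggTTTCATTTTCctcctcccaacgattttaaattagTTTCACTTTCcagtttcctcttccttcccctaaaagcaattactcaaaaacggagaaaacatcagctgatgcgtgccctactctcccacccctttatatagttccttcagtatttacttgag
ISG15: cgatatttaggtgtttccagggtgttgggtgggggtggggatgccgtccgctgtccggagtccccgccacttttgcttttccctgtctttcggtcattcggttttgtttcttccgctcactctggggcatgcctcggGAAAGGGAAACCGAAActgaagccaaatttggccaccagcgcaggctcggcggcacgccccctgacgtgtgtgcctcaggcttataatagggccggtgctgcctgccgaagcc
IFITM3: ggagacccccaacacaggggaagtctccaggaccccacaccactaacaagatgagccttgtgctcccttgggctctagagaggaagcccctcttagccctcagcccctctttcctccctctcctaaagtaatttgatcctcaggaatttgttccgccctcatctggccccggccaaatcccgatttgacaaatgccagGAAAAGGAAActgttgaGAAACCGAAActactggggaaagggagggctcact
CXCL10: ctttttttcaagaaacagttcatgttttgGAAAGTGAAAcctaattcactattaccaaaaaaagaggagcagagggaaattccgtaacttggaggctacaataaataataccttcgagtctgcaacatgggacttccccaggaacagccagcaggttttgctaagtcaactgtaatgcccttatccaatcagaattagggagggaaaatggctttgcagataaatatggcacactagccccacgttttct
These windows are chr10:89392373-89392622 (plus strand) for IFIT1, chr10:89327747-89327996 (plus strand) for IFIT3 and chr1:1013247-1013496 (plus strand) for ISG15. IFITM3 is shown by chr11:320861-321110 (minus strand) and CXCL10 by chr4:76023498-76023747 (minus strand). The pairs of matches of IFIT1, IFIT3 and IFITM3 are apart from each other, while the 2 of ISG15 overlap and CXCL10 has 1, far from its start.

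A promoter sequence was matched for 31 of the 39 genes, over a window of 300 bases that runs on for 50 bases past the start. The window matched to RSAD2 lies away from the start of its counted entry. The ISRE core was found on either strand in 20 of the 31 (64.5%), against 1255 of 35116 RefSeq promoters of the same length (3.57%). The STAT-binding GAS motif, searched as TTCNNNGAA, was found in 9 of the 31 (29.0%), against 2689 of all promoters (7.66%). In 3 genes (IFI27, IFITM1 and BST2) a GAS match overlapped an ISRE match. A match describes letters in the window and not a bound site. IFI6, HERC5, IFIH1 and IFIT5 held 3 ISRE matches each, and those of IFIT5 lay close to its start.

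**Figure D1:**
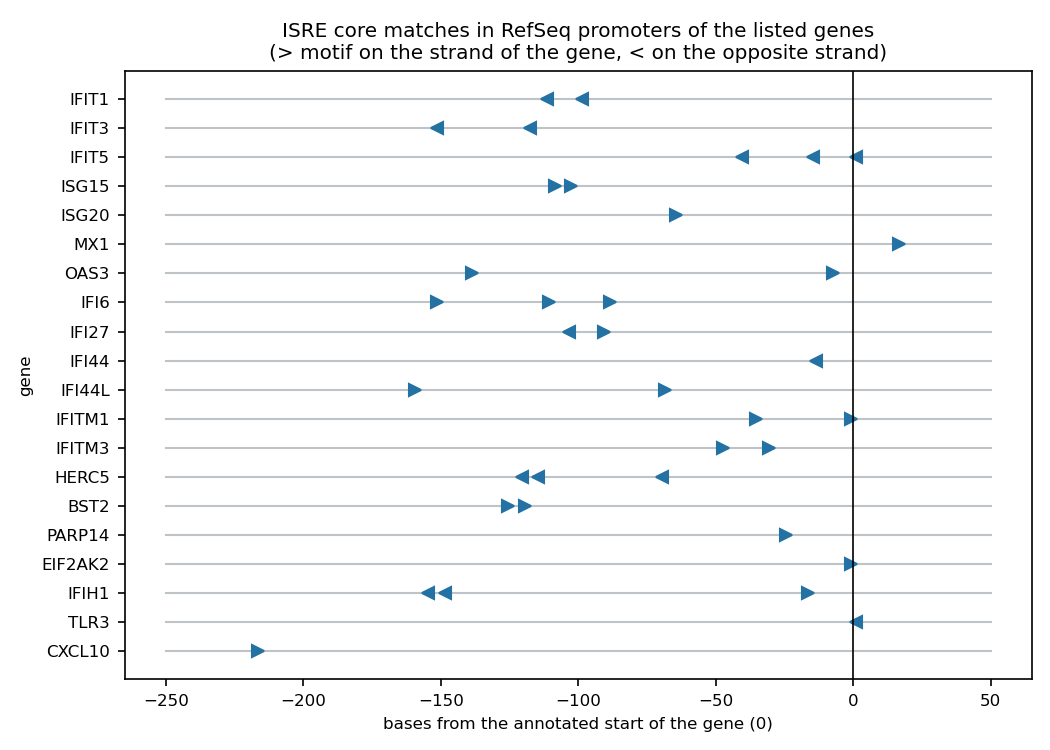
Positions of ISRE core matches in the 20 promoters that hold one, as bases from the annotated start (0, vertical line), with 1 row per gene. Triangles mark the middle of a match and point right for a match on the strand of the gene and left for the opposite strand, and most lie before the start.

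Before the comparisons, the libraries were checked by values that could bear on them. Total reads were 48323990 to 53659652 in YK-4-279, 38568983 to 65547726 in DMSO, 46888217 to 49350237 in siDHX9 and 47769636 to 51041169 in scrambled libraries. The entry that joins DHX9 with its neighbour NPL held 19342, 21178 and 21304 normalised counts in siDHX9 libraries, against 30287, 33422 and 34357 in scrambled libraries. The DHX9 groups did not overlap, the level was 37.0% lower with siDHX9 (log2 -0.66 ± 0.07 SE, adjusted p = 4.54e-05), and an exact two-sided permutation test over the 6 libraries gave p = 0.1, the lowest value possible with 3 against 3. With YK-4-279 the same entry differed by -0.21 on the log2 scale (adjusted p = 0.0567). Scrambled replicates 1 and 2 stood apart for CHAC1, a stress-induced gene, with 5052 and 8311 normalised counts, against 720.2 in scrambled replicate 3 and 131 to 566 in the other 9 libraries. Results that rest on the scrambled group are therefore also given with scrambled replicate 3 as its lone library, which assumes that this library varies like the other groups. All 9 Ewing sarcoma markers listed were measured, among them CD99 with a mean of 28091 normalised counts.

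Of 12 immune cell markers, which a cell line should lack, 10 were below the minimum and 5 (CD3E, CD3D, MS4A1, NKG7 and CLEC4C) were at 0 in all 12 libraries. The other two were CD14 and CD68, and the entry of CD68 is joined with SENP3 and EIF4A1, so that no level can be credited to CD68. The 10 low markers summed to 20.1 to 40.0 normalised counts in YK-4-279, 5.14 to 9.93 in DMSO, 4.32 to 12.8 in siDHX9 and 3.7 to 12.6 in scrambled libraries. In bulk RNA, fewer cells with a transcript and less of it per cell cannot be told apart.

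The first question was whether an interferon response was present at all. MX1 and OAS2, a dynamin-like GTPase and an oligoadenylate synthetase that serve widely as reporters of interferon signalling, had 0 reads in all 12 libraries. OAS1 (45 reads in all), PARP9 (64), PARP14 (106), TLR3 (19), XAF1 (4), CXCL10 (42) and CCL5 (14) also fell below the minimum. Of the interferon genes themselves, 20 matched an entry, 18 were at 0 in all 12 libraries and the 2 with any read, IFNA5 and IFNL3, held 12 reads together. IFNB1 was searched for by symbol, and no entry matched. In contrast, IFITM2, IFITM1, ISG15 and IFIT5 each held 1956 normalised counts or more in every DMSO library, so that part of the set was transcribed without drug or transfection.

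**Figure D2:**
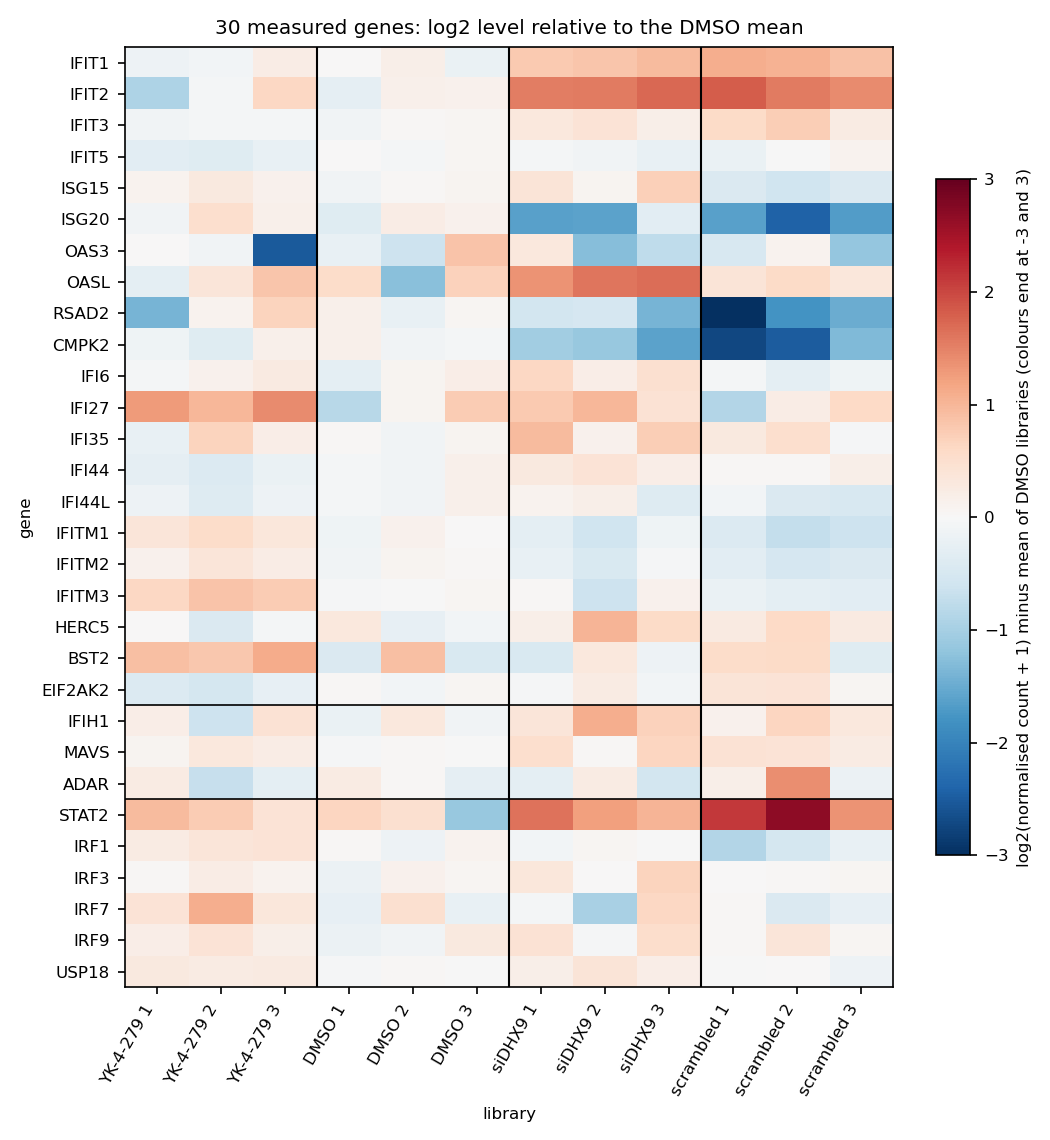
Log2(normalised count + 1) of the 30 measured genes (rows, with lines between effectors, sensors and regulators) in the 12 libraries (columns), relative to the mean of the DMSO libraries. Blue and red follow different genes in each group: IFIT1 and IFIT2 are red and RSAD2 and CMPK2 blue in transfected libraries, while IFITM3 is red in YK-4-279 libraries.

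YK-4-279 against DMSO asks what the drug did at 16 hours. Of the 30 measured genes 2 rose and 1 fell (10.0%), while 13.8% of all 14225 named entries tested passed the same threshold of an adjusted p under 0.05 (7.33% higher and 6.49% lower). IFITM3 and IFITM1, membrane proteins that block the entry of enveloped viruses, rose, and IFIT5, which binds RNA with a 5′ triphosphate, fell. The other 27 did not pass. The median log2 difference of the 30 was 0.15, beside 0.02 for all named entries, and the groups did not overlap for 12 of the 30 (43.5% of all named entries).

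IFITM3 had 2029.9, 2369 and 2228 normalised counts in YK-4-279 libraries, against 1269, 1299 and 1362 in DMSO libraries. Every treated library lay above every DMSO library, a 1.68-fold rise (log2 0.75 ± 0.15 SE, adjusted p = 0.00623), and the call was kept without each single library. IFITM1 had 3449, 3954 and 3436 in YK-4-279 libraries and 2464, 2956 and 2704 in DMSO libraries. These groups too did not overlap, with a 1.33-fold rise (log2 0.42 ± 0.12, adjusted p = 0.0379). IFITM2, the third gene of this cluster on chromosome 11 (hg19, 308107 to 309411), had 3864, 4572 and 4109 against 3279, 3721 and 3619.8, also without overlap, but did not pass (log2 0.24, adjusted p = 0.151). IFITM1, IFITM2 and IFITM3 are paralogs of related sequence, so the split of reads between them is uncertain.

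IFIT5 had 1643, 1595 and 1749.9 normalised counts in YK-4-279 libraries, against 2053, 1956 and 2126 in DMSO libraries. All 3 treated libraries lay below the DMSO libraries, by a factor of 1.23 (log2 -0.30 ± 0.09, adjusted p = 0.0427). The calls of IFIT5 and IFITM1 were lost without any 1 of the 6 libraries (adjusted p = 0.0696 to 0.151 and 0.056 to 0.155). The count fell to 1 each time, where 6.03 to 8.09% of all named entries passed. Of the genes that did not pass, IFI27 (log2 1.24, adjusted p = 0.0845) and EIF2AK2, which encodes the kinase PKR (log2 -0.40, adjusted p = 0.0513), lay wholly above and wholly below DMSO. IFI27 had 35.7, 29.2 and 39.3 normalised counts in YK-4-279 libraries and 7.46, 14.9 and 24.4 in DMSO libraries. EIF2AK2 had 397, 366 and 448 in YK-4-279 libraries and 542, 501 and 551 in DMSO libraries. Of the remaining effectors, IFI44 (log2 -0.29, adjusted p = 0.085) also lay below DMSO in all 3 libraries.

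Among the 6 transcription factors and feedback regulators none passed with YK-4-279, although the log2 difference was above 0 in 6 of 6, from 0.12 (IRF3) to 0.71 (STAT2). USP18, which removes ISG15 from proteins and restrains the interferon receptor, had 428, 412 and 423 normalised counts in YK-4-279 libraries, against 343, 356 and 349 in DMSO libraries. These groups did not overlap, and the difference missed the threshold (log2 0.27, adjusted p = 0.0994). Beside these values, the ribosomal RNA entry took 7.9 to 9.98% of reads in YK-4-279 and 4.95 to 5.44% in DMSO libraries. The monocyte marker CD14 rose with YK-4-279 (42.1, 44.2 and 56.4 normalised counts, against 0, 9.93 and 12.8 in DMSO, adjusted p = 0.032). The part of either in the differences of the set was not tested.

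siDHX9 against scrambled asks what lower DHX9 did within transfected cells. ISG15, IFI6 and IRF1 rose, none of the 30 fell, and these 3 (10.0%) stand beside 16.7% of all named entries (8.75% higher and 7.97% lower). ISG15 is a ubiquitin-like protein joined to other proteins during antiviral responses, IFI6 a small membrane protein that blocks flavivirus replication, and IRF1 a transcription factor of interferon and cytokine genes. The log2 difference was above 0 in 22 of the 30, with a median of 0.21 beside 0.00 for all named entries. The groups did not overlap for 8 of the 30 (29.3% of all named entries).

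ISG15 (hg19 chromosome 1, 948847 to 949919) had 3379.9, 2764 and 4247 normalised counts in siDHX9 libraries, against 1939, 1714 and 1929 in scrambled libraries. The groups did not overlap, and ISG15 was 1.84-fold higher with siDHX9 (log2 0.88 ± 0.13, adjusted p = 0.0007). That call was kept without each single library and against scrambled replicate 3 alone (log2 0.82, adjusted p = 0.0375). YK-4-279 gave a log2 difference of 0.18 for ISG15 (adjusted p = 0.359), with 2809, 3205 and 2859 in YK-4-279 libraries and 2435, 2645 and 2731 in DMSO libraries.

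IFI6 had 855, 642 and 777 normalised counts in siDHX9 libraries, against 531, 455 and 504 in scrambled libraries. The groups did not overlap (log2 0.60 ± 0.15, adjusted p = 0.015), but the call was lost without scrambled replicate 2 (adjusted p = 0.0529), without siDHX9 replicate 1 (0.0646) and against scrambled replicate 3 alone (log2 0.58, 0.177). IRF1 had 154, 169 and 162 in siDHX9 libraries and 88.4, 114 and 141 in scrambled libraries. These did not overlap either (log2 0.52 ± 0.17, adjusted p = 0.0461), and of the single libraries IRF1 kept its call without scrambled replicate 3 and with no other left out. Without any other one its adjusted p was 0.0669 to 0.17, and against scrambled replicate 3 alone the log2 difference was 0.20 (adjusted p = 0.605). Between siDHX9 and DMSO libraries, IFI6 differed by 0.44 (adjusted p = 0.057) and IRF1 by -0.02 (adjusted p = 0.961). In siDHX9 against scrambled, the count of called genes was 1 without scrambled replicate 2 (9.91% of all named entries) or siDHX9 replicate 1 (9.15%). It was 6 without siDHX9 replicate 2, where 29.9% of all named entries passed. IFITM1 (0.38), IFITM2 (0.28), IFITM3 (0.36) and IRF3 (0.47) were then past the threshold.

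CXCL10, a chemokine that draws activated T cells, lay below the minimum level but had 12, 16 and 10 reads in the siDHX9 libraries, against 4 in all scrambled libraries together. It had 0 reads in every YK-4-279 and DMSO library. At equal normalisation the level in siDHX9 was 10.2 times that in scrambled libraries (95% exact interval 3.66 to 39.2). The siDHX9 level was 13.3 times a floor of 3 reads over the DMSO group. The interval and floor take each read as independent and cover counting error only. Every CXCL10 count was even, so reads may have been counted in pairs. The interval would then be too narrow and the floor too low. With no minimum level, the adjusted p was 0.00236 for siDHX9 against scrambled and 0.000251 against DMSO. Its entry lies within that of ART3, which averaged 34.4 ± 15.9 normalised counts in siDHX9, 14.04 ± 4.68 in scrambled, 26.7 ± 12.4 in YK-4-279 and 36.1 ± 11 in DMSO libraries (SD, n = 3 each), and without a stated strand their reads cannot be told apart. CXCL11, a neighbouring chemokine that also overlaps ART3, had 12 reads in siDHX9, 26 in scrambled, 8 in YK-4-279 and 0 in DMSO libraries. Of the 26, 24 were in scrambled replicate 1. CCL5, another T cell chemokine, ran otherwise, with 0 reads in siDHX9, 12 in scrambled, 2 in YK-4-279 and 0 in DMSO libraries. The 4 reads of XAF1, an apoptosis factor, were all in siDHX9 replicate 3.

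Of the sensors, none passed in this comparison. IFIH1 had 29.0, 48.5 and 36.8 normalised counts in siDHX9 libraries and 24.3, 35.1 and 27.9 in scrambled libraries, which overlap (log2 0.36, adjusted p = 0.481). MAVS, the mitochondrial adaptor of MDA5 and RIG-I, differed by 0.03 (adjusted p = 0.918). ADAR, which edits adenosine to inosine in double-stranded RNA, had 529, 764 and 441 in siDHX9 libraries against 725, 1699 and 574 in scrambled libraries. The highest of these 6 values was scrambled replicate 2, and the difference did not pass (log2 -0.66, adjusted p = 0.191).

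**Figure D3:**
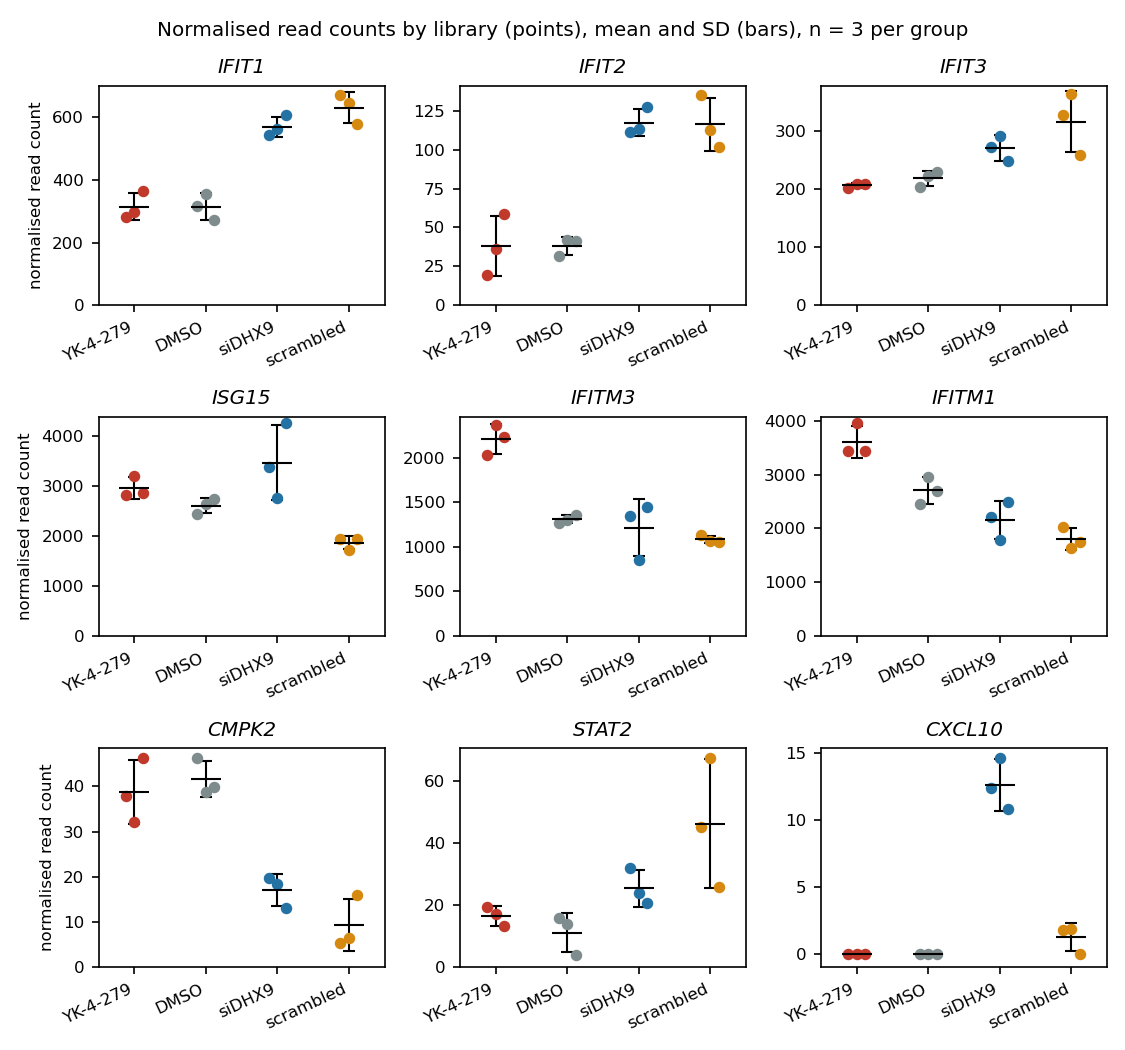
Normalised read counts of 9 genes in each library (points), with the mean (line) and SD (bars) of 3 libraries per group and a separate vertical axis for each gene. IFIT1 and IFIT2 separate transfected from untransfected libraries, ISG15 separates siDHX9 from scrambled, and CXCL10 is above 0 in 5 of the 6 transfected libraries and in no other.

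Scrambled against DMSO sets transfected cells at 48 hours beside untransfected cells at 16 hours in solvent. It shares its scrambled libraries with siDHX9 against scrambled and its DMSO libraries with YK-4-279 against DMSO. Here 11 of the 30 genes passed (36.7%), beside 18.9% of all named entries (9.7% higher and 9.22% lower), and they split in direction. IFIT1, IFIT2, IFIT3 and STAT2 rose, while ISG15, ISG20, RSAD2, CMPK2, IFITM1, IFITM2 and IRF1 fell. The median log2 difference was 0.01 (0.02 for all named entries), and the median of its size without sign was 0.37 (0.23 for all named entries). The groups did not overlap for 14 of the 30 (40.8% of all named entries). With scrambled replicate 3 as the lone scrambled library, 1 gene passed, IFIT1, and 2.38% of all named entries did.

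The IFIT genes encode proteins that bind foreign or abnormal RNA ends and lie together on chromosome 10. IFIT1 (hg19, 91152303 to 91166243) had 672, 645 and 578 normalised counts in scrambled libraries, against 318, 356 and 272 in DMSO libraries. The groups did not overlap, with a 2.01-fold rise (log2 1.01 ± 0.13, adjusted p = 0.000288) that was kept without each single library and with scrambled replicate 3 alone (log2 0.88, adjusted p = 0.0378). IFIT2 had 135, 113 and 102 in scrambled libraries and 31.3, 41.7 and 41.1 in DMSO libraries. It rose 3.02-fold without overlap (log2 1.59 ± 0.31, adjusted p = 0.0036), and with scrambled replicate 3 alone the log2 difference was 1.41 (adjusted p = 0.17).

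IFIT3 had 326, 362 and 258 normalised counts in scrambled libraries, against 203, 222 and 229 in DMSO libraries. It rose 1.43-fold (log2 0.52 ± 0.14, adjusted p = 0.0186), but the call was lost without scrambled replicate 1 or 2 or DMSO replicate 1 or 2 (adjusted p = 0.0525 to 0.0802), and with scrambled replicate 3 alone it was 0.25 (adjusted p = 0.512). IFIT5 did not pass (log2 -0.04, adjusted p = 0.819). All 4 IFIT genes lie within the span of the LIPA entry, and without a stated strand reads of overlapping genes cannot be told apart. LIPA itself differed by 0.20 (adjusted p = 0.251), with 809, 814 and 705 in scrambled libraries and 765, 697 and 579 in DMSO libraries.

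The effectors that fell include a neighbouring pair on chromosome 2. RSAD2, or viperin, makes a chain-terminating nucleotide from CTP, and CMPK2 supplies nucleotide triphosphates. RSAD2 had 0, 4.62 and 5.99 normalised counts in scrambled libraries, against 20.9, 15.9 and 19.3 in DMSO libraries. CMPK2 had 5.41, 6.47 and 16.0 in scrambled libraries and 46.3, 38.7 and 39.8 in DMSO libraries. Neither gene overlapped between the groups, and both were low. The log2 differences were -2.52 ± 0.71 for RSAD2 (adjusted p = 0.0253) and -2.19 ± 0.38 for CMPK2 (adjusted p = 0.00175). RSAD2 lost its call without scrambled replicate 1 (log2 -1.64) or any 1 DMSO library (adjusted p = 0.0622 to 0.0877). With scrambled replicate 3 alone, the values were -1.48 (adjusted p = 0.374) for RSAD2 and -1.32 (adjusted p = 0.124) for CMPK2.

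ISG20, an exonuclease that degrades viral RNA, had 7.21, 3.7 and 6.98 normalised counts in scrambled libraries, against 18.6, 28.8 and 27.0 in DMSO libraries. It fell 3.76-fold without overlap (log2 -1.91 ± 0.44, adjusted p = 0.00957). ISG15 fell (log2 -0.49, adjusted p = 0.0174), as did IFITM1 (-0.59, adjusted p = 0.00566) and IFITM2 (-0.42, adjusted p = 0.0157). IFITM1 had 2029.6, 1645 and 1743 in scrambled libraries and 2464, 2956 and 2704 in DMSO libraries, and IFITM2 had 2837, 2499 and 2611 against 3279, 3721 and 3619.8. All 4 of these genes lay wholly below DMSO. ISG15 and IFITM2 lost their calls without scrambled replicate 2, DMSO replicate 2 or DMSO replicate 3 (adjusted p = 0.0588 to 0.0691). With scrambled replicate 3 alone, ISG20 (log2 -1.67), ISG15 (-0.43), IFITM1 (-0.63) and IFITM2 (-0.44) kept their sign and had adjusted p values of 0.0873 to 0.29.

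STAT2, a transcription factor that works with IRF9, had 45.1, 67.5 and 25.9 normalised counts in scrambled libraries, against 15.7, 13.9 and 3.85 in DMSO libraries. It rose 4.13-fold (log2 2.05 ± 0.48, adjusted p = 0.01) without overlap, and the call was lost without scrambled replicate 2 (log2 1.73, adjusted p = 0.054) and with scrambled replicate 3 alone (1.34, adjusted p = 0.371). IRF1 fell, with 88.4, 114 and 141 in scrambled libraries and 168, 147 and 177 in DMSO libraries. That call (log2 -0.54 ± 0.17, adjusted p = 0.0372) was lost without any 1 of the libraries except scrambled replicate 3 (adjusted p = 0.0569 to 0.147), and scrambled replicate 3 alone gave -0.22 (adjusted p = 0.618). IRF3, IRF7, IRF9 and USP18 differed by -0.21 to 0.15 and did not pass. IRF9 shares its entry with RNF31 and overlaps PSME2, and IRF3 overlaps BCL2L12, so these values are uncertain. The count of 11 was 6 without scrambled replicate 2 or DMSO replicate 2 and 7 without DMSO replicate 3. The shares of all named entries were then 10.6, 10.1 and 10.4%, in that order, beside 18.9% in the main fit.

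siDHX9 against DMSO uses the libraries of the comparisons above again, so its values are set beside them and are no separate evidence. IFIT1, IFIT2 and OASL rose and CMPK2 fell, 4 of 30 (13.3%) beside 15.6% of all named entries (8.3% higher and 7.33% lower). IFIT1 had 544, 562 and 606 normalised counts and IFIT2 112, 113 and 128 in siDHX9 libraries. Both lay above all DMSO libraries (log2 0.86, adjusted p = 0.000749 for IFIT1 and 1.61, adjusted p = 0.00348 for IFIT2), and between siDHX9 and scrambled they differed by -0.14 (adjusted p = 0.463) and 0.02 (adjusted p = 0.973). IFIT3, with 272, 291 and 248 in siDHX9 libraries, did not pass here (log2 0.31, adjusted p = 0.143). LIPA rose by 0.41 on the log2 scale in this comparison (adjusted p = 0.029).

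OASL, an oligoadenylate synthetase-like protein that lacks the synthetase activity, had 29.0, 34.8 and 36.8 normalised counts in siDHX9 libraries, against 16.4, 3.97 and 18.0 in DMSO libraries. The groups did not overlap (log2 1.54 ± 0.49, adjusted p = 0.0464), and in scrambled libraries OASL had 14.4, 16.6 and 13.97. Its call was lost without any 1 of the 6 libraries other than DMSO replicate 3, and without DMSO replicate 2 the log2 difference was 0.92 (adjusted p = 0.165). CMPK2 had 19.7, 18.3 and 13.0 in siDHX9 libraries, all below the DMSO libraries (log2 -1.26, adjusted p = 0.0365). That call was lost without any 1 library other than siDHX9 replicate 2 (adjusted p = 0.0608 to 0.119). ISG15 lay above DMSO in all 3 siDHX9 libraries and did not pass (log2 0.39 ± 0.13, adjusted p = 0.0501). The count of 4 was 2 without DMSO replicate 1, DMSO replicate 2 or siDHX9 replicate 1, and 9 without siDHX9 replicate 2. The shares of all named entries were then 8.65, 8.83, 10.2 and 23.2%, in that order.

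**Figure D4:**
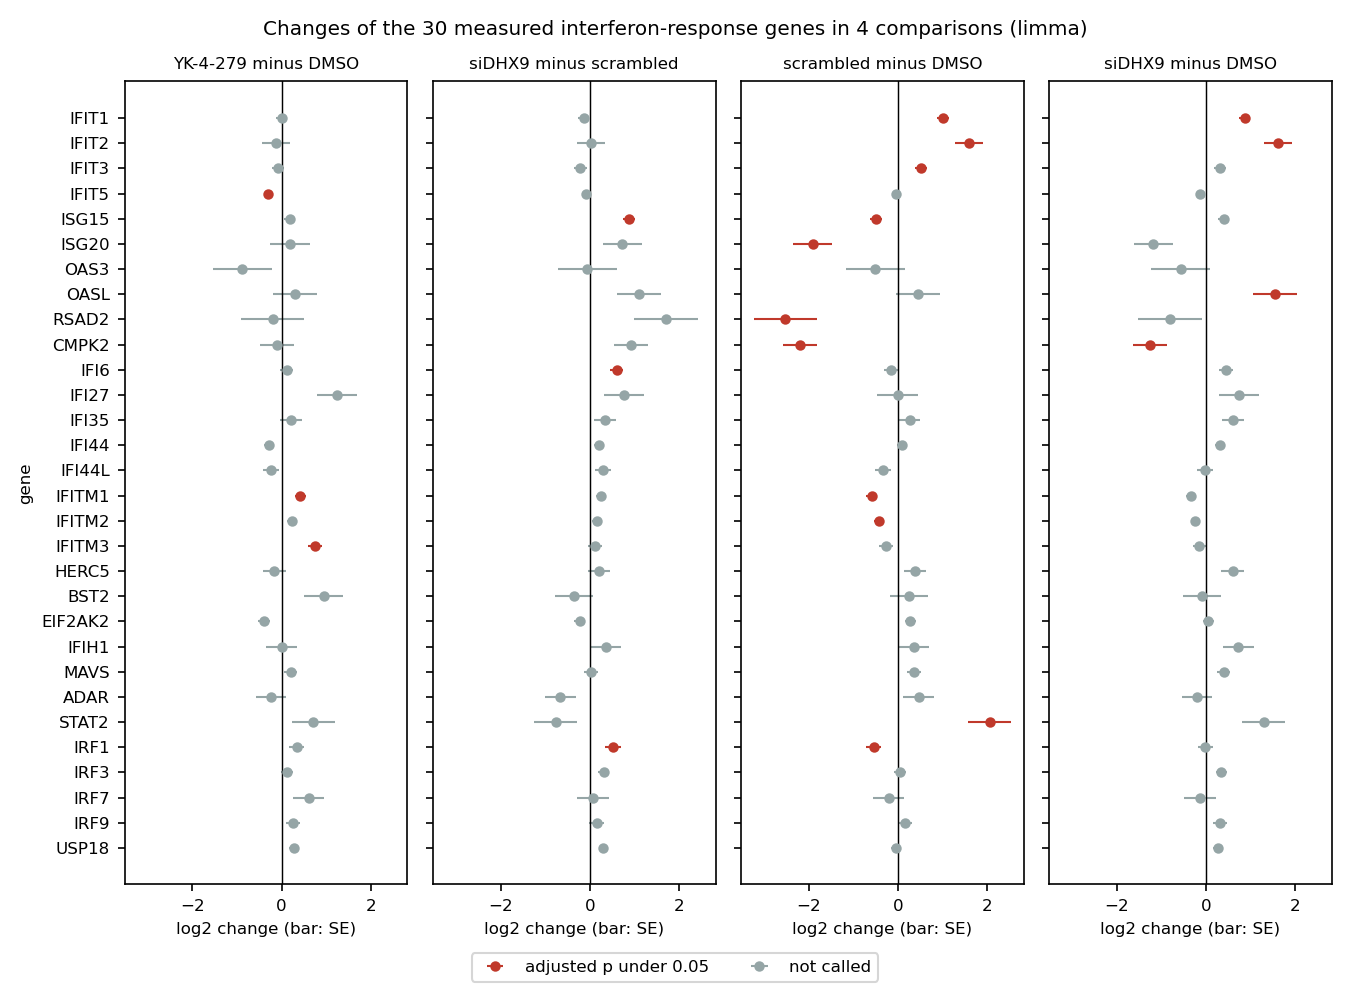
Log2 change (points) with its SE (bars) of the 30 measured genes in 4 comparisons, with genes at an adjusted p under 0.05 in red and the others in grey. Red points number 3, 3, 11 and 4 from left to right, and those of scrambled minus DMSO lie on both sides of 0.

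The effects of drug and knockdown were tested against each other as (YK-4-279 minus DMSO) minus (siDHX9 minus scrambled). Of the 30 genes 1 passed (3.33%), beside 9.69% of all named entries (4.4% with the drug effect higher and 5.29% with it lower). ISG15 differed by -0.69 ± 0.18 (SE, log2 scale, adjusted p = 0.0269), with effects of 0.18 for YK-4-279 and 0.88 for siDHX9. The call was lost without any 1 of DMSO replicates 2 and 3, YK-4-279 replicates 1 and 3, scrambled replicate 2 and siDHX9 replicate 1 (adjusted p = 0.0547 to 0.071), and with scrambled replicate 3 alone (-0.64, adjusted p = 0.167). IFITM3 had effects of 0.75 for YK-4-279 and 0.12 for siDHX9, and this difference did not pass (0.63, adjusted p = 0.0804). Without scrambled replicate 3, IFI44 (-0.55) and CMPK2 (-1.47) also passed, and without siDHX9 replicate 3, IFI44 (-0.56) and IFITM3 (0.77) did. The shares of all named entries were then 13.2 and 12.5%.

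Over the 4 comparisons of groups, 15 of the 30 genes (50%) were called at least once, beside 41.5% of all named entries, and 15 never. The 15 without a call include OAS3, IFI27, IFI35, IFI44, IFI44L, HERC5, BST2 and EIF2AK2 among the effectors. They also include IFIH1, MAVS and ADAR, and IRF3, IRF7, IRF9 and USP18. BST2, or tetherin, which holds budding virions at the cell surface, had 28.1, 26.1 and 32.2 normalised counts in YK-4-279 libraries and 10.4, 27.8 and 10.3 in DMSO libraries, with DMSO replicate 2 inside the range of the treated libraries. HERC5, the ligase that attaches ISG15 to proteins, ranged from 36.2 to 101 over the 12 libraries, and OAS3 from 4.03 to 51.4.

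Promoter letters were also set beside the calls. Of the 24 measured genes with a matched promoter, 16 hold an ISRE core. In scrambled against DMSO (18.9% of all named entries called), 2 of these 16 rose and 3 fell, and of the 8 without a match 1 rose and 3 fell. With YK-4-279 (13.8%), 2 of the 16 rose and 1 fell, and none of the 8 passed. In siDHX9 against scrambled (16.7%), 2 of the 16 and 1 of the 8 rose. Whether the 2 kinds of promoter differ was not tested. RSAD2, CMPK2 and STAT2, called in scrambled against DMSO, have neither motif in the matched window. The RSAD2 window (6865635 to 6865934 on GRCh38) lies beside that of CMPK2 (6866586 to 6866885). In hg19, however, the RSAD2 entry starts at 7017796 and the CMPK2 entry ends at 7006766. The RSAD2 window therefore lies away from the start of the counted entry. The place of RSAD2 among the 8 genes without a match is uncertain.

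The rest of the pathway was read from further lists. Their values are those of the main fit, without left-out libraries, and many rest on scrambled replicates 1 and 2. Receptors, JAK kinases and STATs were measured in 14 entries for 16 listed genes. The phosphatase PTPN6 rose with YK-4-279 (log2 1.51, adjusted p = 0.0122) and the interferon receptor chain IFNAR1 fell with siDHX9 against scrambled (log2 -0.56, adjusted p = 0.029). No entry of this list passed in scrambled against DMSO or siDHX9 against DMSO (limma, with 2 at an unadjusted p under 0.05 in each).

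Of 24 further sensors and adaptors 19 were measured, and 1 to 2 passed in each comparison (5.26 to 10.5%, below the share of all named entries each time). The kinase TBK1, which phosphorylates IRF3, fell with YK-4-279 (988 against 1545 in DMSO libraries, log2 -0.65, adjusted p = 0.013). RNF135, a ubiquitin ligase of RIG-I, rose in siDHX9 against scrambled libraries (log2 0.40, adjusted p = 0.0107), where IRF5 fell (-1.65, adjusted p = 0.0347). MYD88, an adaptor of Toll-like receptors, and RNF135 fell in scrambled against DMSO libraries (log2 -0.66, adjusted p = 0.00973 and -0.32, adjusted p = 0.0263). The 1 entry that rose in siDHX9 against DMSO libraries joins TLR9 with TWF2 (log2 0.48, adjusted p = 0.018), so the change cannot be credited to TLR9. DDX58, which encodes RIG-I, passed in none of these (YK-4-279 minus DMSO -0.51, siDHX9 minus scrambled -0.41, scrambled minus DMSO 0.47).

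Of 67 other interferon-stimulated genes 48 were measured. With YK-4-279, 5 rose and 1 fell (12.5%, beside the 13.8% of all named entries), among the risers TAP1, the peptide transporter of antigen presentation (log2 0.98, adjusted p = 0.0149), and UBE2L6, the conjugating enzyme of ISG15 (log2 0.55, adjusted p = 0.00623). SP110, a nuclear body protein, averaged 376 normalised counts in YK-4-279 and 209.8 in DMSO libraries (log2 0.84, adjusted p = 0.00133). It fell in siDHX9 against scrambled (log2 -0.43, adjusted p = 0.0417), in scrambled against DMSO (-0.61, adjusted p = 0.00699) and in siDHX9 against DMSO (-1.04, adjusted p = 0.00024). In siDHX9 against scrambled 4 rose and 4 fell (16.7%, as for all named entries), in scrambled against DMSO 5 rose and 4 fell (18.8%, beside 18.9%), and in siDHX9 against DMSO 6 rose and 1 fell (14.6%, beside 15.6%). TAPBP, a chaperone of antigen loading, rose (0.52, adjusted p = 0.00545) and ZC3HAV1, the zinc-finger antiviral protein, fell (-0.68, adjusted p = 0.0356) with siDHX9 against scrambled. IRF2, a repressor of interferon responses, rose in scrambled against DMSO libraries (0.99, adjusted p = 0.00141).

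NF-kappaB genes, which double-stranded RNA sensing also reaches, were measured in 13 of 21 cases. In scrambled against DMSO 4 rose and 2 fell (46.2%, beside 18.9%), with NFKBIA, the inhibitor IκBα, at 675 normalised counts in scrambled and 1519 in DMSO libraries (log2 -1.17, adjusted p = 0.000103). With YK-4-279, NFKB2, RELA and TNIP1 rose (log2 0.55 to 0.60) and none fell (23.1%, beside 13.8%). In siDHX9 against scrambled 2 rose (15.4%, beside 16.7%), RELB (log2 0.67, adjusted p = 0.042) and the entry of the adhesion molecule ICAM1, at 2295 in siDHX9 and 1386 in scrambled libraries (log2 0.72, adjusted p = 0.00187). That entry joins ICAM1 with ICAM4 and overlaps MRPL4 and S1PR2, so its change is uncertain for ICAM1. In siDHX9 against DMSO 4 rose and 1 fell (38.5%, beside 15.6%).

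Of 31 proteins that bind double-stranded RNA or act in the integrated stress response 29 were measured. In siDHX9 against scrambled the 3 that fell were DHX9 itself, CAPRIN1 (log2 -0.75, adjusted p = 0.00104) and PPP1R15B (log2 -0.51, adjusted p = 0.00581), and none rose (10.3%, beside 16.7%). With YK-4-279, PPP1R15A, which restores translation after stress, rose (log2 0.56, adjusted p = 0.024) and EIF2AK3, the kinase PERK, fell (log2 -0.89, adjusted p = 0.00418), 2 of 29 (6.9%, beside 13.8%). PPP1R15A, with a mean of 1472 normalised counts, overlaps the far more abundant FTL, so its value is uncertain. In scrambled against DMSO, 3 rose, among them DUS2 (log2 0.39, adjusted p = 0.0138) and EIF2AK1 (log2 0.31, adjusted p = 0.0184), and none fell (10.3%, beside 18.9%). DUS2 overlaps DDX28, and EIF2AK1 overlaps AIMP2 and ANKRD61, and these are uncertain too. In siDHX9 against DMSO 1 rose and 5 fell (20.7%, beside 15.6%).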

How the data were processed

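Per the file headers, the deposited table holds 1 signal value per entry and library, a read count that the authors normalised by DESeq. The submitters' processing notes name FastQC, Picard, SAMtools, STAR 2.4.0, DESeq and build hg19. No source used here gives the strand of counting. Dividing each column by the value of 1 read gave whole reads within 0.1 for 99.996 to 100% of values.

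The log2 of each value plus 1 was fitted in limma 3.58.1 under R 4.3.3. The model held 4 group means over the 12 libraries, with trend moderation and 8 residual degrees of freedom. Fold changes are on that scale, which understates the change of low genes. The 14225 named entries with a mean of at least 10 were tested, two-sided, with Benjamini-Hochberg adjustment over all of them. The script recovered known changes in data simulated with the same dispersion for every gene. That checks the script and not the calls made here. The 3172 unnamed entries past the minimum entered an alternative, and no sample column was left out.

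Alternatives were other added values (0.5, 10), minimum levels (none, 50), TMM, quantile normalisation, only the libraries compared, edgeR 4.0.16 (quasi-likelihood) and DESeq2 1.42.0 on the recovered reads, a replicate block, each library left out and scrambled replicate 3 as the lone scrambled library. Replicate chi-square checks found no duplicated library. The chi-square per degree of freedom was 65.6 and 92.8 for siDHX9 replicate 2 against siDHX9 replicates 1 and 3, and 29.6 between those. It was 30.7 to 41.5 among scrambled libraries, 8.4 to 24.4 among YK-4-279 libraries and 7 to 18.3 among DMSO libraries. The genes and lists were chosen with earlier results of these data known. All 39 genes are accounted for. Of each further list, up to 4 called genes were named, those with the largest change among genes that reached a mean of 100 in 1 group and did not overlap, and DHX9 and DDX58 in any case. A few items that this rule names are not reported here. CD14, PTPN6, IRF5 and CXCL11, outside that rule, were named after their values were seen.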

Additional observations from a re-analysis of the deposited data

Results flagged for a closer look

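For 11 of 164 measured entries of the set and its neighbouring lists (6.71%, beside 9.69% of all named entries), the effect of YK-4-279 differed from that of siDHX9 by the test of the difference (limma, log2 scale, drug effect minus knockdown effect). ISG15 differed by -0.69 (adjusted p = 0.0269), with effects of 0.18 for YK-4-279 and 0.88 for siDHX9. Among other interferon-stimulated genes, SP110 differed by 1.26 (0.84 for YK-4-279 and -0.43 for siDHX9, adjusted p = 0.00138) and APOBEC3B by 0.71 (0.25 and -0.46, adjusted p = 0.0311).

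DHX9 differed by 0.45 (-0.21 for YK-4-279 and -0.66 for siDHX9, adjusted p = 0.011), CAPRIN1 by 0.79 (0.04 and -0.75, adjusted p = 0.00944) and EIF2AK3 by -0.85 (-0.89 and -0.04, adjusted p = 0.0379). Among NF-kappaB genes, RELA differed by 0.57 (adjusted p = 0.0253), NFKBIA by -0.69 (adjusted p = 0.0278) and TNIP1 by 0.68 (adjusted p = 0.0285). Of the Ewing sarcoma markers, NR0B1 differed by -0.38 (adjusted p = 0.034) and BCL11B by -0.54 (adjusted p = 0.0118). Both effects of a gene enter this difference, and scrambled replicates 1 and 2, which stood apart for CHAC1, enter the siDHX9 effect.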

How the results depend on the processing

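No call of a gene of the set changed sign under any alternative run. Over the 22 calls (the difference of effects included), 304 of 388 values stayed past the threshold in the same direction and 84 did not, 9 calls were kept without each single library, and 5 under every alternative.

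With YK-4-279 the count of 3 was 7 when only the 6 libraries compared were fitted, and 1 without any single library. The share of all named entries, 13.8%, moved the same way, to 30% and to 6.03 to 8.09%. For siDHX9 against scrambled (3) the count was 1 with only the libraries compared (3.46% of all named entries). Without single libraries it was 1 to 6 (8.75 to 29.9%). For scrambled against DMSO (11) the count was 6 to 12 without single libraries (10.1 to 23.4%) and 7 at a minimum mean of 50 (21.6%). At that minimum fewer genes of the set are tested. For siDHX9 against DMSO (4) the count was 7 in DESeq2 (19.8%) and 2 to 9 without single libraries (8.65 to 23.2%). For the difference of effects (1) the count was 2 at an added value of 0.5, with no minimum and at a minimum of 50. It was also 2 with TMM, with quantile normalisation, in edgeR and in DESeq2. The share of all named entries in these was 5.81 to 14.7%. Without single libraries the count was 0 to 3 and the share 5.36 to 13.2%. Elsewhere the cause was not tested. The DHX9 level stayed at -0.62 to -0.74 on the log2 scale.

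Replicate numbers did not pair the libraries: over 18 same-numbered pairs the correlation of deviations was -0.249 to 0.12, with 2 above 0.1. With the replicate block the count was 1 for YK-4-279, 3 for siDHX9 against scrambled and 11 for scrambled against DMSO. It was 3 for siDHX9 against DMSO and 1 for the difference. The shares of all named entries were 11.3, 14.9, 17.1, 13.0 and 7.86%, in that order. IFIT5 and IFITM1 (adjusted p = 0.0658 and 0.0609) lost their calls for YK-4-279, as did OASL and CMPK2 (0.058 and 0.0532) for siDHX9 against DMSO, where STAT2 passed (log2 1.29, adjusted p = 0.0436). Groups of 3, low counts of OASL, RSAD2, CMPK2, ISG20 and STAT2, and the 9 genes below the minimum limit what can be seen, and a gene that did not pass is not shown to be unchanged.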
